A study of Rattus norvegicus with 6 samples.

Results

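Structures that grow from the epithalamus, the roof of the diencephalon, were set against other parts of the ventricular wall in adult male Sprague-Dawley rats. On one side stood 3 one-colour microarrays, 2 of the pineal gland and 1 of the subcommissural organ. On the other side stood 2 arrays, 1 of the subfornical organ and 1 of the ependyma of the third ventricle. These 5 arrays are part of a set of 6, and the sixth, total brain, was kept out of the rule that separates genes. Total brain did enter the choice of a probe for each gene and the pooled intensity cut-offs. Per the labels, every sample except those of the pineal gland was pooled, 2 to a pool for the 3 other dissected structures, and total brain came from normal brains. The labels do not tie either pineal gland array to an animal of its own, so the spread between that pair may be technical. Tissue was cut out by laser microdissection and 3 ng of RNA per sample was amplified before labelling, per the labels. The ependyma was taken away from both organs of the wall, and no treatment or genetic change was named for any animal. A gene was kept as separated when all 3 epithalamic arrays lay above both wall arrays, or all 3 lay below them. The distance between the nearest arrays of the 2 sides, on the log2 scale, is called the gap. Of 12167 named genes 8849 counted as measured, meaning that the higher side reached an intensity of 1.05, the pooled median, and 2428 of them were separated.

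The pineal gland makes melatonin, and its cells carry much of the light detection machinery of retinal photoreceptors. The subcommissural organ is a secretory strip of tall ependymal cells under the posterior commissure that releases glycoproteins into the cerebrospinal fluid. Both form from the dorsal midline of the caudal diencephalon, a region in which the homeodomain factors Otx2 and Pax6 act in development. The subfornical organ lies in the rostral roof of the third ventricle and senses circulating signals of salt and water balance, and ciliated ependyma lines the ventricle itself.

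Arrays had nearly equal medians, from 1.04 to 1.07, and 75th percentiles from 4.90 to 7.93. Precision is limited by how few arrays there are. Known markers matched the labelled tissues in part. Tph1, the first enzyme of serotonin synthesis, stood at 547 and 352 in the pineal gland and at 1.25 or less on the other 3 arrays. Dynlrb2, a dynein light chain of cilia, stood at 490 in the subcommissural organ, 157 in the subfornical organ and 574 in the ependyma. Creb3l4 was at 76.5 in the subcommissural organ and at 0.515 or less on the other 4. The ciliary regulator Foxj1 lay near background on all 6 arrays, at 0.142 to 0.503, and so did the neuronal gene Snap25, at 0.491 to 0.892. The hypothalamic peptide gene Oxt, at 317 in the ependyma and at 0.654 or less elsewhere, was a transcript of the ependymal array alone. The pineal gland pair correlated at r = 0.94 in log2 level over 8849 genes, a description only since genes are no replicates. The subcommissural organ correlated with the ependyma at 0.82 and with the pineal gland arrays at 0.71 and 0.69, so by this measure its nearest array lay on the other side.

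More genes were lower than higher in the epithalamic pair of structures. Among the measured genes, 930 were separated on the higher side (10.5%) and 1498 on the lower side (16.9%), which is 27.4% in either direction. A gap of at least 1, which is 2-fold, was reached by 109 higher genes (1.23%) and 352 lower genes (3.98%). A gap of at least 2, or 4-fold, was reached by 23 higher genes (0.26%) and 105 lower genes (1.19%). The surplus of lower genes depended on scaling for small gaps: after quantile normalization 1243 were higher and 1337 lower, and after scaling to the 75th percentile 1241 and 1344. At gaps of at least 1 it held, with 140 against 332 and 137 against 329. Many low sides lay near background. All arrays of the lower side were under 1.05 for 53 of the 109 higher genes (48.6%) and for 107 of the 352 lower genes (30.4%). With every value first raised to 1.05, gaps of at least 1 remained for 74 and 297 of these genes. The gap exceeded the gene's own difference between the pineal gland arrays in 105 of 109 and 311 of 352. These genes were chosen for a large gap on the same arrays, so high counts follow in part from the choice. Among all separated genes it did so in 378 of 930 higher and 748 of 1498 lower.

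The number of tissues leaves little room for a test. An exact test of 3 arrays against 2 has 10 splits and cannot give a one-sided p below 0.1. Arrays that could be swapped freely would thus separate a gene on the higher side with probability 0.1, and likewise on the lower side. The shares of 10.5% and 16.9% stand beside that value, though the alike pineal gland arrays are not free to swap. With limma on 4 tissue values, the pineal gland arrays averaged, 0 genes passed a Benjamini-Hochberg adjusted p of 0.05 (0%), and the lowest adjusted p was 0.609. Without adjustment 607 genes had p under 0.05 (6.86%), of which 159 were higher (1.8%) and 448 lower (5.06%). Counting each of the 5 arrays once also gave 0 calls by limma, with a lowest adjusted p of 0.150 and 966 genes under an unadjusted 0.05 (10.9%). A fit on all 6 arrays with a mean per tissue, whose spread came from the pineal gland pair alone, called 470 higher (5.31%) and 1049 lower (11.9%). In that fit the spread was in effect common to all genes, so a call meant a minimum size: Slc12a4 passed at an adjusted p of 0.0498 by limma with a log2 difference of -1.46. Values below are therefore levels and gaps, and no gene list held a call by limma over the 4 tissues.

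Kcne2, a small subunit that modifies voltage-gated potassium channels in secretory epithelia, had the largest gap of all 8849 measured genes. Its intensity was 58.5 and 34.8 in the pineal gland and 29.1 in the subcommissural organ, against 0.497 in the subfornical organ, 0.495 in the ependyma and 4.24 in total brain. The subcommissural organ lay just under the lower pineal gland array, and both walls lay under the pooled median. Against that median the nearest arrays were at least 27.7-fold apart. The tissue-level log2 difference was 6.19 with a standard error of 0.53, at an adjusted p of 0.609 by limma. A second Kcne2 probe stood at 1.09 and 1.46 in the pineal gland, 0.749 in the subcommissural organ, 0.960 in the subfornical organ and 0.320 in the ependyma, near background throughout, so the pattern rests on 1 probe. Kcnq1, a channel that Kcne2 pairs with in epithelia, was looked at after its values were seen and was not measured, at 0.56 or less on every array.

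Otx2, a homeodomain factor needed for the pineal gland and the choroid plexus to form, stood at 214 and 140 in the pineal gland and 124 in the subcommissural organ. In the subfornical organ it was 42.2, in the ependyma 23.7 and in total brain 19.4. It was well above background on every array, and its nearest arrays were 2.94-fold apart, the 47th gap from the top. Pax6, a paired homeodomain factor, stood at 5.18 and 2.05 in the pineal gland and at 26.7 in the subcommissural organ, against 0.372 in the subfornical organ, 1.47 in the ependyma and 0.373 in total brain. Its nearest arrays, the second pineal gland array and the ependyma, were 1.39-fold apart, the 323rd gap. The tissue-level log2 difference was 2.21 (standard error 0.58) for Otx2 and 3.66 (standard error 1.30) for Pax6, with adjusted p of 0.623 and 0.700 by limma. Pax6 was thus mainly high in the subcommissural organ, while Otx2 and Kcne2 were high in both structures.

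Kcne2 and Otx2 are also genes of the choroid plexus, which hangs from the same ventricular roof. Of 16 measured choroid plexus markers 3 were separated higher and 3 lower, where 10.5% of all measured genes were higher and 16.9% lower. The lower ones were Slc13a4, at 3.28, 5.36 and 4.48 against 48.2 and 9.83, Steap1 and Cldn2. Steap1 stood at 9.94, 9.49 and 9.53 against 16.3 and 29.8, and Cldn2 had a gap of 1.07-fold only. The list's summed intensity was 818 and 610 in the pineal gland and 845 in the subcommissural organ. It was 289 in the subfornical organ and 597 in the ependyma. Ttr, the main plexus transcript, was 104 and 152 in the pineal gland but 1.61 in the subcommissural organ, below the 4.17 and 4.97 of the walls. The plexus potassium channel Kcnj13 was at 28.5 in the subcommissural organ and under 1 on the other 4 arrays, Folr1 at 60.7 in the subcommissural organ and 79.7 in the ependyma. F5 was at 50.6 and 22.2 in the pineal gland, 0.571 in the subcommissural organ and 0.320 and 0.773 in the walls. Kl and Clic6, both strongly expressed in plexus, were under 0.71 on every array. The part of plexus RNA in the Kcne2 and Otx2 values was not tested beyond these levels.

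Among the other genes with the largest gaps on the higher side, a first group works in vesicles, membranes and polarity. Mlph, the melanophilin that ties Rab27 vesicles to myosin, stood at 8.63, 7.86 and 8.71 on the pineal gland and subcommissural arrays and at 0.524 and 0.769 in the walls, at least 7.48-fold apart. Mgarp, which takes part in the transport of mitochondria, stood at 23.1, 25.3 and 11.9 against 1.31 and 0.930, or 9.07-fold. Llgl2, a protein of basolateral polarity, stood at 7.33, 5.01 and 3.37 against 0.635 and 0.169, at least 3.20-fold. These 3 genes were near or below the pooled median in both walls and above it on every epithalamic array. Cldn22, a claudin of tight junctions, was at 15.3 on both pineal gland arrays and 2.53 in the subcommissural organ against 0.440 and 0.422. Uvrag, which acts in autophagy, stood at 2.55, 3.98 and 2.39 against 0.339 and 0.404. Second probes of Llgl2 and Uvrag were near background, at 1.26 or less on these arrays, and were not separated.

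A further group is made of secreted proteins and enzymes of the secretory path. Fkbp14, a proline isomerase of the endoplasmic reticulum that helps collagen fold, stood at 13.2, 12.8 and 11.6 on the epithalamic arrays against 1.38 in the subfornical organ and 0.165 in the ependyma, 8.43-fold apart. St6galnac2, a sialyltransferase of the Golgi, was highest in the subcommissural organ, at 26.3, with 10.3 and 6.75 in the pineal gland and 0.821 and 1.08 in the walls. Cpq, a secreted carboxypeptidase, stood at 6.77, 4.11 and 5.56 against 0.776 and 0.368. The subcommissural organ lay above the lower pineal gland array for St6galnac2 and Cpq, and just below it for Fkbp14. Postn and Spon2 encode matrix proteins: Postn was at 16.6, 6.05 and 1.5 against 0.262 and 0.142, and Spon2 at 2.64, 2.95 and 1.52 against 0.163 and 0.285. With both walls under the pooled median these come to gaps of at least 1.43-fold and 1.45-fold only.

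Signalling and RNA-binding genes completed the 15. Rgs9, which switches off transducin in photoreceptors, stood at 211 and 166 in the pineal gland and 5.06 in the subcommissural organ against 0.614 and 0.577, at least 4.81-fold. Of its 2 other probes 1 was separated the same way by a gap of 0.57 and the other, near background, was not. Rbm47, a factor of RNA editing and splicing, stood at 34.3, 21.3 and 14.8 against 2.47 and 2.56, 5.78-fold apart and above the pooled median on every array. Ccnl1, a cyclin tied to splicing, stood at 2.07, 1.82 and 1.59 against 0.300 and 0.199, and Mab21l4 at 5.66, 3.45 and 2.67 against 0.142 and 0.456. A second Ccnl1 probe, at 0.943 or less, was near background and not separated. Of the 109 genes higher by at least 2-fold, 76 were higher in the pineal gland than in the subcommissural organ, and 72 were within 2-fold of each other there.

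**Figure D1:**
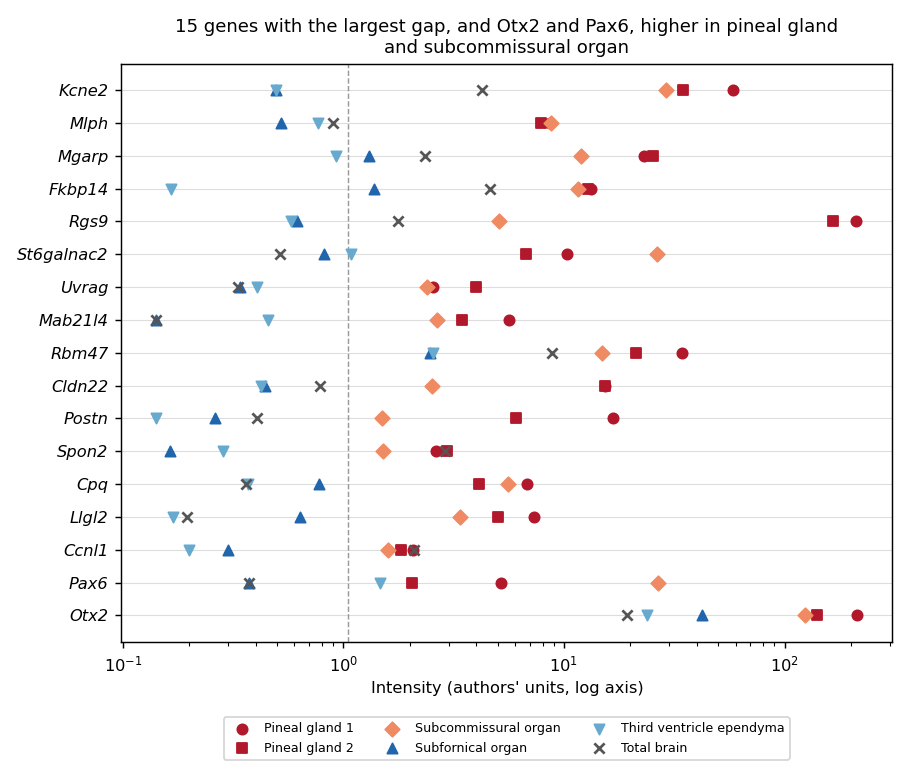
Intensity on a log axis for the 15 genes with the largest gaps on the higher side, with Otx2 and Pax6. Each symbol is 1 array and the dashed line marks the pooled median of 1.05. Kcne2 at 29.1 to 58.5 in the epithalamic arrays and 0.495 to 0.497 in the walls has the widest separation, and most other wall values lie left of the line.

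Transcription factors of the dorsal midline did not split as a group. Of 15 on the array 8 were measured, 2 were separated higher (Pax6 and Otx2) and 1 lower, with a median log2 difference of 0.58 beside -0.08 for all measured genes, and with probes averaged that median turned to -0.15. The lower one was Msx2, a roof plate homeobox gene, at 0.142, 0.692 and 0.845 against 2.13 and 3.11. Its paralog Msx1, chosen with its values in view, followed another line, at 241 in the subcommissural organ and 204 in the ependyma, and at 16.5 and 12.9 in the pineal gland and 35.1 in the subfornical organ. Zic4, chosen in the same way, was highest in the subcommissural organ at 111, with 13.6 and 8.23 in the pineal gland, 24.2 in the subfornical organ and 6.10 in the ependyma. Of 8 measured pineal transcription factors 3 were separated higher and 0 lower, with a median of 1.20. Beside these 2 lists, 10.5% of all measured genes were higher and 16.9% lower. The 3 higher pineal factors were Otx2, Pax6 and the corepressor gene Cbfa2t2. Cbfa2t2 stood at 30.1, 25.3 and 29.2 against 18.3 and 21.6 and at 82.9 in total brain. Without the subcommissural array 8 of 9 were higher with a median of 2.45. Leaving out an array loosens the rule for every gene. In that setting 1915 of all measured genes were higher, beside 930 with every array kept. Crx, the Otx relative that drives pineal and photoreceptor genes, was at 2.34 and 1.75 in the pineal gland but 0.800 in the subcommissural organ, below the 0.870 of the ependyma, so it was not separated.

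The separated members of the lists of other forebrain factors and of Wnt and BMP signals were all lower, in small numbers. Vax1, a homeodomain factor of the ventral forebrain, stood at 0.148, 0.399 and 0.142 on the epithalamic arrays against 27.9 in the subfornical organ and 3.20 in the ependyma, at least 3.04-fold apart. Of 7 measured hypothalamic and telencephalic factors 3 were lower and 0 higher, where 16.9% of all measured genes were lower and 10.5% higher. Their median of -1.41 became -0.27 without the ependymal array, with 3 lower and 1 higher. The other two, Six6 and Foxa1, each reached the pooled median in 1 wall only: Six6 was 5.70 in the subfornical organ and Foxa1 2.34 in the ependyma. Of 19 measured genes of Wnt, BMP and roof plate signalling 4 were lower and 0 higher, a share near the 16.9% of all genes, with a median of -1.02. Without the ependyma 15 of 19 were lower with a median of -1.82, and without the subfornical organ 6 of 18 were lower and 4 higher with a median of -0.31. Over all measured genes 3199 were lower without the ependyma and 2516 without the subfornical organ, beside 1498 with every array kept. Id4, a target and inhibitor in BMP signalling, stood at 9.35, 6.49 and 11.5 against 58.0 and 45.8, a 3.99-fold gap, and a second Id4 probe was separated the same way. The Wnt effector Lef1 was 0.369 or less on the epithalamic arrays against 2.36 and 1.13. The BMP antagonists Nog and Chrd had small gaps, of at least 1.07-fold and of 1.09-fold.

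Promoters were read for the core that Otx and Crx homeodomains bind, GGATTA on either strand, because Otx2 stood among the separated factors. Promoter sequences, from RefSeq on GRCr8, cover 250 bases before to 50 after the start and matched 7339 of the 8849 measured genes. The core was present in 369 of these (5.03%), in 5 of 90 genes higher by at least 2-fold (5.56%) and in 13 of 276 lower by as much (4.71%). TAATTA, a core of many homeodomains, was in 2.04% of all, 1.11% of the higher and 1.45% of the lower genes. At gaps of at least 4-fold GGATTA was in 1 of 17 higher genes (5.88%) and in 1 of 86 lower genes (1.16%), counts too small to read. The 17 are those read of 23 genes higher by at least 4-fold, and the promoters of Kcne2, Mlph, St6galnac2 and Otx2 were not analysed here. Cldn22 was the one with the match, 232 bases before the start, and its promoter at chr16:51156035-51156334 on the minus strand is shown with the core in capitals.
Cldn22: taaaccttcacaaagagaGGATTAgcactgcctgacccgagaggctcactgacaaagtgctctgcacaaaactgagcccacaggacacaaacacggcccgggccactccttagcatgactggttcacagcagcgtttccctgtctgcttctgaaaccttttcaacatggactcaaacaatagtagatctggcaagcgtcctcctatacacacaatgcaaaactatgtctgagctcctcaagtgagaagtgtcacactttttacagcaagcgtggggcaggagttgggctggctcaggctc
Pax6, whose promoter at chr3:112590346-112590645 on the plus strand was read in the same way, held no such core in this window. A match is a description of letters only.

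On the lower side the largest gap belonged to Pcp4, a calmodulin-binding protein of neurons. It stood at 12.4 and 9.69 in the pineal gland and 9.07 in the subcommissural organ, against 188 in the subfornical organ, 377 in the ependyma and 406 in total brain. All values were well above background, the 3 epithalamic arrays lay within a narrow range, and the nearest arrays were 15.1-fold apart. The tissue-level log2 difference was -4.74 with a standard error of 0.60, at an adjusted p of 0.609 by limma. Gabrb1, a subunit of the GABA-A receptor, stood at 0.733, 0.847 and 1.03 against 37.2 and 13.5, at least 12.8-fold. A second Gabrb1 probe, at 0.884 or less, was near background and not separated. Cpne6, a calcium-binding copine of neurons, stood at 0.451, 0.465 and 1.90 against 21.1 and 28 and at 169 in total brain. Hecw1, a ubiquitin ligase, was 0.479 or less on the epithalamic arrays against 6.29 and 12.2. These genes of neurons thus had total brain on the same side as the walls.

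Genes of astrocytes and matrix formed a second part of the largest lower gaps. Aldh1l1, a folate enzyme that marks astrocytes, stood at 1.06, 0.142 and 2.46 against 105 in the subfornical organ and 31.1 in the ependyma, a 12.6-fold gap. Bcan, the proteoglycan brevican of the perineuronal matrix, stood at 5.21, 2.86 and 7.60 against 211 and 69.7, or 9.17-fold. A second Bcan probe, at 0.768 or less, was near background and not separated. Itgb4, a laminin-binding integrin, stood at 7.42, 7.50 and 4.48 against 78.6 and 61.9, and at 0.671 in total brain. A second Itgb4 probe was separated the same way by a gap of -2.85. Of these 3, Itgb4 was the one with total brain below both sides, while Aldh1l1 and Bcan in total brain, at 39.0 and 145, lay between the wall arrays.

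The rest of the 15 included factors and enzymes of mixed function. Dmrta2, a transcription factor of the dorsal telencephalon, stood at 1.71, 0.398 and 0.430 against 17.0 and 23.6. Top2a, a topoisomerase of dividing cells, stood at 0.244, 0.682 and 0.404 against 10.5 and 5.60, and Endou, an endoribonuclease, at 0.498, 0.630 and 3.46 against 47.3 and 33.3. Asphd2 was at 1.86, 1.57 and 4.19 against 48.5 and 37.7, and Rprml, Slc25a34 and Hhatl were under 0.9 on all epithalamic arrays and between 3.47 and 15.2 in the walls. Among the 352 genes lower by at least 2-fold, 221 were higher in the subfornical organ than in the ependyma, and the walls were within 2-fold of each other for 219. On the epithalamic side the pineal gland was above the subcommissural organ in 110 of them.

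**Figure D2:**
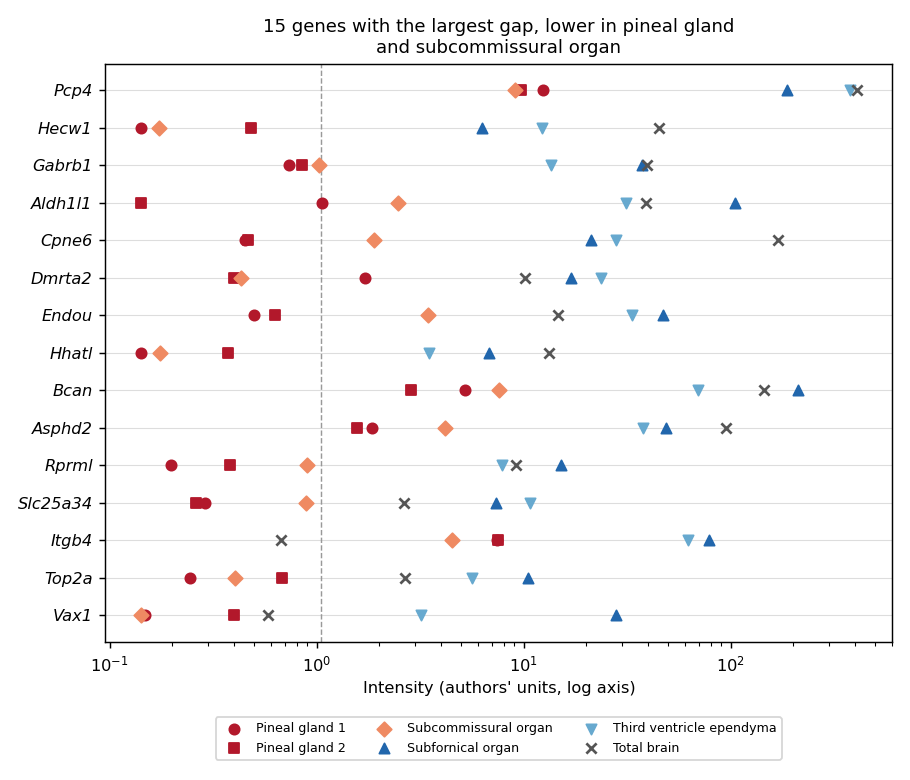
Intensity on a log axis for the 15 genes with the largest gaps on the lower side. Each symbol is 1 array and the dashed line marks the pooled median of 1.05. The walls lie to the right, with Pcp4 at 188 and 377, and total brain lies near them for most genes but not for Itgb4 or Vax1.

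Astrocyte markers had the largest share of separated lower members among the 28 lists, with microglia close behind. Of 16 measured members 12 were separated lower and 0 higher, where 16.9% of all measured genes were lower, and the median log2 difference was -2.65. Their summed intensity was 613 and 356 in the pineal gland and 386 in the subcommissural organ, against 2060 in the subfornical organ and 1310 in the ependyma. Median levels in the same order were 1.38, 0.832 and 9.31 against 75.9 and 41.4. The pineal gland sums thus came mostly from members whose levels are not given here. Gfap, the intermediate filament of astrocytes, stood at 0.553 and 0.568 in the pineal gland, 9.59 in the subcommissural organ, 140 in the subfornical organ and 39.3 in the ependyma, a 4.10-fold gap. Aqp4, the water channel of astrocyte endfeet and ependyma, stood at 3.37, 0.615 and 42.0 against 199 and 104. For both, the subcommissural organ lay between the pineal gland and the walls. Acsbg1, an acyl-CoA synthetase of astrocytes, stood at 0.694, 0.445 and 9.04 against 55.0 and 49.4. The calcium-binding protein gene S100b stood at 1.26, 0.953 and 2.25 against 10.2 and 9.72, and the connexin gene Gjb6 at 0.563, 3.60 and 3.91 against 16.5 and 18.7. Fewer astrocytes and less RNA per astrocyte cannot be told apart in such tissue samples. The glial list of calcium binding, synuclein and gap junction genes had 7 of 12 lower and 0 higher with a median of -1.99, and it shares Aqp4, Gja1, Gjb6 and S100b with the astrocyte list. Its member S100a13 stood at 20.2, 27.8 and 20.8 against 133 and 58.0.

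Microglial genes came next. Of 14 measured members 10 were lower and 0 higher, where 16.9% of all measured genes were lower and 10.5% higher. The median was -2.24. Sums were 257 and 274 in the pineal gland and 110 in the subcommissural organ against 832 and 580 in the walls. Tmem119, a membrane protein of resident microglia, stood at 2.65, 3.43 and 5.13 against 31.0 and 26.4, a 5.14-fold gap. The complement genes C1qa and C1qb had gaps of 4.29-fold and 4.58-fold: C1qa stood at 10.5, 17.0 and 11.9 against 114 and 72.9, and C1qb at 7.28, 9.71 and 6.95 against 64.9 and 44.4. Aif1, which encodes Iba1, stood at 10.8, 13.6 and 12.9 against 86.9 and 53.9. Within each side these 4 genes varied little, and the pineal gland and the subcommissural organ lay at like levels. Cd68 and Cd74, both also macrophage genes, were exceptions: Cd68 was 10.3, 12.4 and 2.06 against 25.8 and 0.936, and Cd74, chosen with its values in view, was 23.3, 36.3 and 9.18 against 28.2 and 8.23. Cx3cr1, Trem2, Ptprc, Fcer1g and Cd163, looked up afterwards, were on the array but not measured.

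The blood-brain barrier was followed by the levels of its transporter and junction genes. Whether the barrier was open or sealed in any of these structures was not tested. Of 12 measured members 8 were lower and 0 higher, with a median of -1.66. Abcb1a, the efflux pump P-glycoprotein, stood at 0.438, 1 and 0.514 against 8.64 and 7.64, at least 7.27-fold apart. Slc2a1, the glucose transporter of barrier endothelium, stood at 37.8, 20.4 and 39.3 against 88.2 and 142, and the monocarboxylate transporter gene Slc16a1 at 1.53, 1.20 and 1.89 against 5.01 and 4.59. For both genes another probe was separated the same way. The tight junction gene Cldn5 was 11.1 and 11.8 in the pineal gland and 50.0 in the subcommissural organ against 89.4 and 71.7. Mfsd2a, chosen with its values in view, was not separated, because the ependyma, at 1.35, lay below the subcommissural organ, at 1.66. Of 14 measured endothelial genes 3 were lower and 1 higher, with a median of -0.34. The shares over all measured genes were 16.9% lower and 10.5% higher. Pecam1 stood at 4.68, 2.44 and 1.02 against 1.65 and 2.86, so the 2 sides overlapped for this general endothelial marker. Among 16 genes of mural cells and fibroblasts 2 were higher and 1 lower, with a median of 0.14. Of the higher pair Dcn, the matrix protein decorin, had the wider gap, at 30.4, 27.6 and 23.2 against 14.3 and 1.19, and the lower one was Cspg4, a 2.56-fold gap.

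**Figure D3:**
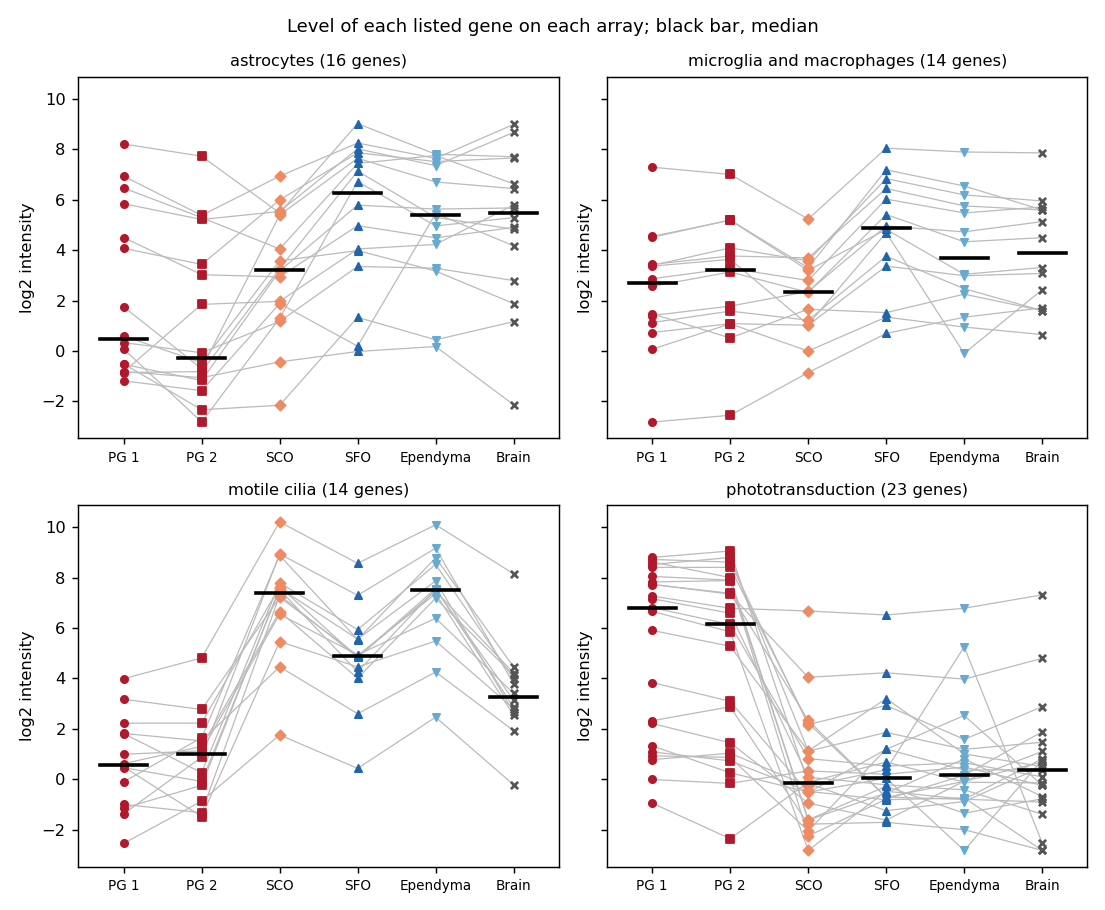
Log2 intensity of each measured member of 4 lists on the 6 arrays, with the median as a black bar and a thin line per gene. Astrocyte and microglial medians are lower on the 3 epithalamic arrays (PG, pineal gland; SCO, subcommissural organ) than on both walls (SFO, subfornical organ; ependyma). Cilia genes place the subcommissural organ with the walls, and the phototransduction median is highest in the pineal gland, though single genes such as Gnb1 are high on all arrays.

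Oligodendrocyte genes were lower too, but with small gaps. Of 18 measured members 8 were lower and 1 higher, where 16.9% of all measured genes were lower and 10.5% higher. The median was -2.37, and only 3 of the 8 lower members reached 2-fold. Mbp, the myelin basic protein, was near background in the pineal gland, at 0.209 and 0.205, and stood at 5.11 in the subcommissural organ, 51.5 in the subfornical organ and 7.15 in the ependyma. The subcommissural organ and the ependyma thus lay 1.40-fold apart, and for Mog, at 43.7 and 51.0, 1.17-fold. The sums were 107 and 102 in the pineal gland, 290 in the subcommissural organ, 375 in the ependyma and 2000 in the subfornical organ, so most of the range lay between the pineal gland and the subfornical organ. Larger gaps were seen for Mal, a myelin proteolipid, at 2.65, 2.50 and 12.3 against 135 and 31.1. Cspg4, the NG2 proteoglycan of oligodendrocyte precursors and pericytes, stood at 5.77, 5.14 and 3.90 against 44.7 and 14.8.

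Of 12 measured neuronal genes 6 were lower and 0 higher, where 16.9% of all measured genes were lower and 10.5% higher. The median was -1.31. Without the subcommissural array 7 were lower and 5 higher with a median of -1.48, and without the ependyma 4 of 10 were lower and 1 higher with a median of -0.51. Over all measured genes these settings gave 2794 and 3199 lower, beside 1498 with every array kept. Thy1, a surface glycoprotein of projection neurons, stood at 7.12, 4.30 and 11.9 against 53.5 and 72.0 and at 509 in total brain. Stmn2, which regulates microtubules in growing axons, stood at 1.01, 0.600 and 1 against 4.26 and 14.5, but a second measured probe was not separated. Elavl3, an RNA-binding protein of neurons, stood at 1.03, 0.398 and 8.78 against 41.3 and 32.9, with a second probe separated the same way. Other neuronal genes went along with the pineal gland alone: Syp, picked with its values in view, was at 159 and 117 there, 6.25 in the subcommissural organ and 15 and 30.9 in the walls. The sums, 499 and 347 in the pineal gland and 94.5 in the subcommissural organ against 214 and 315, therefore overlapped between sides.

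Neuropeptide genes showed the same direction, with wall-specific members. Of 14 measured genes 8 were lower and 1 higher, where 16.9% of all measured genes were lower and 10.5% higher. The median was -2.66, and 5 of the 8 lower genes reached 2-fold. Hcrt, the orexin precursor, stood at 0.652, 0.543 and 9.68 against 25.1 in the subfornical organ and 188 in the ependyma, a 2.59-fold gap. Cartpt stood at 1.10, 1.33 and 1.02 against 4.49 and 15.9, or 3.38-fold. Kiss1 was at 18.6 in the subfornical organ, 0.916 in the ependyma and under 1 on every other array. Tac3 was at 2.68 in the ependyma, 0.795 in the subfornical organ and 0.142, the floor, on all 3 epithalamic arrays. Kiss1 and Tac3 were counted among the 5 that reached 2-fold, but each had a wall array under the pooled median. With both sides raised to that median, the gap of each was 0. The single higher gene, Penk, which encodes enkephalin and was picked as the exception, stood at 205 and 149 in the pineal gland, and the subcommissural organ at 13.7 barely exceeded the ependyma at 13.5. Oxt, at 317 in the ependyma but at 0.142, the floor, in the subfornical organ, was not separated, and its part in the result was not tested. Without the ependymal array 7 of 11 measured peptide genes were lower, with a median of -1.5, and without the subfornical array 10 of 13, with a median of -3.21. Over all measured genes these settings gave 3199 and 2516 lower, beside 1498 with every array kept.

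Receptors of body fluid and hormone signals gave 5 of 13 lower and 1 higher, with a median of -0.30. For these and the tanycyte genes below, the shares over all measured genes were 16.9% lower and 10.5% higher. Ramp1, a partner of the calcitonin receptor family, stood at 1.40, 1.26 and 4.41 against 18.8 and 75.8, a 4.26-fold gap, and a second probe was separated the same way. Casr, the calcium-sensing receptor, stood at 0.568, 0.461 and 2.95 against 6.42 and 5.36. Avpr1a, a vasopressin receptor, went the other way, at 8.59, 3.36 and 1.63 against 0.535 and 0.701, at least 1.55-fold. Of 10 tanycyte genes 3 were lower and 1 higher, with a median of -0.34. Ppp1r1b, the phosphatase inhibitor DARPP-32, stood at 8.63, 5.27 and 9.59 against 34.5 and 92.2, and the proteoglycan gene Vcan at 0.461, 0.366 and 1.21 against 15.4 and 2.04. Of 24 measured genes of antigen presentation and interferon response 5 were lower and 0 higher, a share near the 16.9% of all genes, with a median of -0.74. Psmb9, a subunit of the immunoproteasome, had the widest gap, at 23.3, 15.6 and 18.4 against 82.3 and 53.7. Without the ependyma 18 of 25 were lower and 2 higher with a median of -1.67, and without the subcommissural organ 5 of 24 were lower and 3 higher with a median of -0.05. Over all measured genes these settings gave 3199 and 2794 lower, beside 1498 with every array kept.

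Several known programmes of these structures did not follow the split. Motile cilia genes had 0 of 14 separated in either direction, where 27.4% of all measured genes were, although the median log2 difference was -2.03. Their sums were 45.5 and 56.4 in the pineal gland and 3510 in the subcommissural organ, against 873 in the subfornical organ and 3720 in the ependyma. Tekt1, a microtubule protein of cilia, stood at 0.452 and 0.848 in the pineal gland, 192 in the subcommissural organ, 47.1 in the subfornical organ and 233 in the ependyma. The subcommissural organ stood with the ependyma here, above the subfornical organ. Without the subcommissural array all 14 genes were lower in the pineal gland than in both walls. In that setting 2794 of all measured genes were lower, beside 1498 with every array kept.

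Many phototransduction genes were high in the pineal gland only, but not all. Of 23 measured genes 6 were separated higher and 1 lower, where 10.5% of all measured genes were higher and 16.9% lower. The median was 2.26, and 2 of the 6 higher genes reached 2-fold. Sag, the arrestin that quenches rhodopsin, stood at 338 on both pineal gland arrays and 4.71 in the subcommissural organ, against 0.609 in the subfornical organ, 0.946 in the ependyma and 1.61 in total brain, a gap of at least 4.49-fold. Rgs9, given above, had a like pattern. Gngt1, the gamma subunit of rod transducin, was 444 and 531 in the pineal gland and 0.895 in the subcommissural organ, and Pde6c, the cone phosphodiesterase, 143, 96.1 and 1.06, so that both were near background outside the pineal gland. Other members, chosen with their values in view, differed: the G protein subunit gene Gnb1 was at 154 and 110 in the pineal gland, 102 in the subcommissural organ and 91.5 and 110 in the walls. Unc119 stood at 213 and 162 in the pineal gland and at 16.5, 18.7 and 15.7 on the other 3 arrays, and Pde6h was highest in the ependyma, at 38.2, with 1.72 and 2.05 in the pineal gland. Without the subcommissural array 19 of 24 genes were higher, a setting in which 1915 of all measured genes were higher, beside 930 with every array kept. Sag and Rgs9 were the members of this list that all 3 epithalamic arrays held above the pooled median with a gap of at least 2-fold. Other abundant pineal transcripts in the subcommissural organ stood at 1.25 for Tph1 and 0.747 for Asmt, and their part in these values was not tested.

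Melatonin and serotonin genes had 3 of 10 separated higher and 1 lower, with a median of -0.08. The shares over all measured genes were 10.5% higher and 16.9% lower. Asmt, the last enzyme of melatonin synthesis, was 80.4 and 72.4 in the pineal gland but 0.747 in the subcommissural organ, under the pooled median like the walls at 0.301 and 0.319. With both sides raised to that median the gap of Asmt was 0, and that of Tph1 was 1.19-fold. Pts, the third higher gene, stood at 58.2, 97.8 and 88.2 against 56.1 and 58.1. Its first pineal gland array barely exceeded the ependyma. Aanat, at 10.9 and 10.7 in the pineal gland, was lower in the subcommissural organ (1.11) than in the subfornical organ (4.44). Maoa, which degrades serotonin, was the lower one, at 1.89, 2.63 and 4.70 against 5.74 and 9.74. Of 10 habenula genes 0 were separated, with a median of 0.27. Chrna3, a nicotinic receptor subunit of the medial habenula that pineal cells also express, was 123 and 84.6 in the pineal gland and 0.745 in the subcommissural organ, and Pou4f1 and Gpr151, which mark the habenula, were under 0.62 on every array.

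Epithelial genes split without a common direction. Of 14 measured junction and keratin genes 2 were higher and 2 lower, with a median of 0.51. The shares over all measured genes were 10.5% higher and 16.9% lower. Pkp2, a plaque protein of desmosomes, stood at 81.8, 56.5 and 23.3 against 15.2 and 11.5, and a second probe was separated the same way. Ovol2, an epithelial regulator, stood at 9.99 in the subcommissural organ and under 0.74 on the other 4 arrays. The keratin gene Krt19, chosen with its values in view, was 323 and 218 in the pineal gland and 0.583 in the subcommissural organ. Of 17 ion channel and transporter genes 3 were higher and 6 lower, with a median of -1.22, so Kcne2 did not stand for the list. Its lower members included Aqp4, Slc12a4, at 0.653, 0.534 and 0.716 against 1.41 and 2.25, and the sodium channel gene Scnn1a, at 0.326, 0.236 and 0.152 against 2.42 and 0.767.

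**Figure D4:**
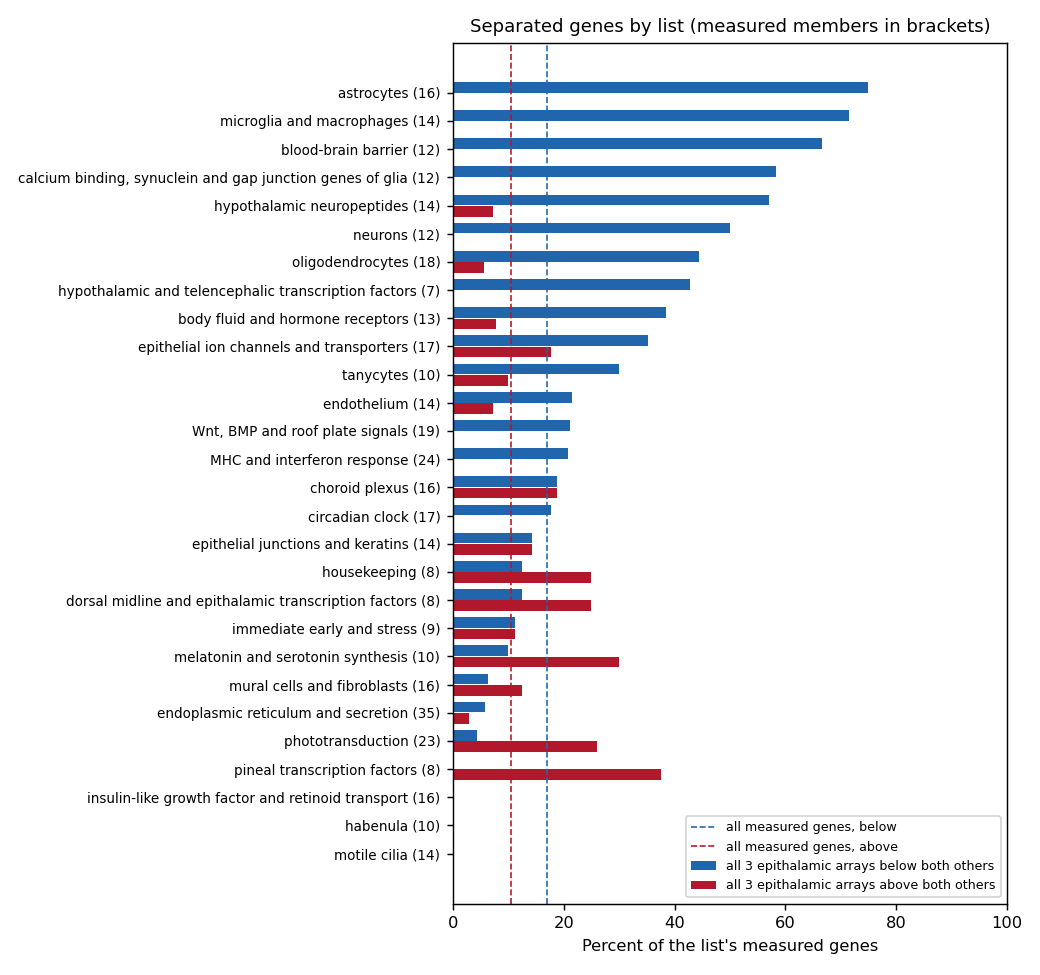
Percent of the measured members of each of 28 lists that lay below (blue) or above (red) both wall arrays on all 3 epithalamic arrays, with dashed lines at the 16.9% and 10.5% of all measured genes. Astrocytes with 12 of 16 and microglia with 10 of 14 lead on the lower side, and motile cilia, habenula and growth factor lists have no bar.

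The remaining lists held few separated genes, where 10.5% of all measured genes were higher and 16.9% lower. Of 35 genes of the endoplasmic reticulum and secretion 1 was higher and 2 lower, with a median of 0.19. The chaperone gene Canx was the clearest, at 1.32, 0.167 and 0.552 against 3.59 and 4.45, and Lman1, a cargo receptor, stood at 41.8, 31.0 and 42.6 against 23.8 and 27.8. Insulin-like growth factor and retinoid transport genes gave 0 of 16 with a median of -0.03, where Igfbp5 was 148 in the subcommissural organ and 44.8 and 34.9 in the pineal gland against 18.5 and 40.0. Clock genes gave 3 of 17 lower and 0 higher with a median of -0.15, led by Per1 at 0.868, 0.660 and 1.76 against 6.12 and 4.67. Immediate early genes gave 1 higher and 1 lower of 9 with a median of -0.32: Ier2 was 5.16, 3.95 and 5 against 3.35 and 2.14, and Arc was 0.660 or less against 2.61 and 2.75. Of 8 housekeeping genes 2 were higher and 1 lower with a median of 0.11. Hprt1 stood at 178, 110 and 130 against 31.5 and 66.3, and all 12 of its other measured probes were separated the same way. Over the 28 lists 378 distinct genes were measured, of which 28 were higher and 93 lower.

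Total brain, which the rule that separates genes did not use, sat mostly with the walls for the lower genes. Of the 352 genes lower by at least 2-fold it was at or above the nearer wall in 214 (60.8%), between the sides in 96 (27.3%) and with the epithalamic side in 42 (11.9%). For the 109 higher genes it lay with the epithalamic side in 27 (24.8%), between in 46 (42.2%) and with the walls in 36 (33.0%). After scaling to the 75th percentile the first of these 3 shares was 14.6%. Without the subfornical array the share with the walls among lower genes was 44.2% and the share with the epithalamic side among higher genes was 43.1%, and without the ependyma these were 28.1% and 49.5%.

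The counts depend on each single array, since a gene must clear every one. Without the second pineal gland array, which was lower than the first by a median log2 of 0.41, 1795 genes were higher and 222 reached 2-fold. Without the subcommissural array 1915 were higher and 2794 lower. Without the subfornical array these were 2046 and 2516, and without the ependyma 1933 and 3199. At the edges of the rule, Grwd1 had a gap of 1.001 and Nup107 just missed 1, and on the lower side Slc5a11 had -1.008 and Nsmf -0.998. At 4-fold, Gucy1a1 at 2.109 was inside and C8h3orf18 at 1.99 outside, while Ltc4s at -2.001 was inside and Id4 at -1.995 and Lrrc10, which just missed -2, were outside. These edge genes were named by their place at the threshold.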

How the data were processed

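The deposited table holds linear intensity values, 1 for each probe on each array; how the authors processed them is not given in the sources used here, so the background correction and the scaling are unknown. Per the labels, 3 ng of RNA went through 2 amplification rounds, and the arrays have 1 colour. Of 35129 probes 34963 had values on all 6 arrays, and entries of -9999 were missing. Values were raised to 0.142, the pooled 5th percentile, log2 was taken, and no scaling was added. Of the probes, 16865 had 1 gene symbol in the platform annotation, 165 several and 18099 were not listed. The brightest probe by mean over all 6 arrays, total brain included, stood for its gene. A gene was measured when the mean of its higher side, each tissue counted once, reached 1.05, the pooled 50th percentile. No detection calls were used. A fold written as at least so much takes values under 1.05 as 1.05. Depth on arrays is set by signal over background only.

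The gap was described without a test. limma 3.58.1 (lmFit and eBayes, two-sided) in R 4.3.3 compared 4 tissue values, with 2 residual degrees of freedom, and p-values were Benjamini-Hochberg adjusted over 8849 genes. Other work used Python 3.11.15, numpy 2.4.6, pandas 2.3.3 and matplotlib 3.10.9. The fit was tested on simulated data, where the signs of nearly all large differences were recovered but most did not pass the adjusted threshold. P-values measure the spread between tissues of a side or, in the fit over 6 arrays, between the pineal gland arrays, which may be technical. Genes named are the 3 markers Pax6, Otx2 and Kcne2, the 15 with the largest gap in each direction, in each of 28 lists up to 4 separated members with the largest gap (or up to 2 with the largest difference), and a set of tissue markers; others are said to be named after their values were seen. The members and lists were chosen with earlier results of these data known. Alternatives were other scalings, floors, filters and probe rules, other samples in the fit, and each array left out.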

Additional observations from a re-analysis of the deposited data

Results flagged for a closer look

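Probes without a gene name took no part in the comparisons above, and some of them carry the same split. Of 8597 such probes at or above the pooled median, 1090 were higher on all 3 epithalamic arrays (12.7%) and 1422 lower (16.5%). A gap of at least 4-fold was seen for 70 higher probes (0.814%) and 87 lower probes (1.01%). Probe 259104 stood at 21.3 and 51.2 in the pineal gland and 25.8 in the subcommissural organ, against 1.01 in the subfornical organ, 0.943 in the ependyma and 2.39 in total brain. On the lower side, probe 14060 stood at 0.849, 0.272 and 4.42 against 112 and 96.6, with 25.4 in total brain. Neither probe had the largest gap of its side, which was 4.43 for probe 183034 and -5.05 for probe 36061. Whether any of these probes target genes named above was not tested.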

How the results depend on the processing

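Limits: 4 tissues, 1 pair of arrays, an unstated background correction and no detection calls leave levels near 1.05 uncertain, and each array acts as a filter. Of the values that carry the comparison, 84 recomputed ones stayed within the spread or within 1.5 times and 32 moved. With the filter at the 75th percentile, which leaves fewer genes, 576 were higher, 969 lower, 54 higher by at least 2-fold and 13 by at least 4-fold, and 13 also remained at 4-fold with both sides raised to 1.05. The fit with a mean per tissue over 6 arrays called 1519 genes where limma over 4 tissues called 0, with 607 under an unadjusted p of 0.05. Total brain lay with the epithalamic side in 14.6% of higher genes after 75th percentile scaling; the cause was not tested. Leaving out each array in turn gave 1037 to 2046 higher and 1663 to 3199 lower genes, 128 to 533 and 417 to 1068 at 2-fold, and 25 to 197 and 132 to 427 at 4-fold, with shares for total brain of 15.6% to 49.5% and 28.1% to 60.6% and 0 limma calls each time. At 4-fold the higher count was 37 without pineal gland replicate 2, 197 without the subcommissural organ, 126 without the subfornical organ and 138 without the ependyma. Some list medians changed sign, with causes not tested. Quantile normalization gave 0.06 for melatonin and 0.06 for growth factor genes, and 75th percentile scaling 0.01 and 0.06. The stricter filter gave 0.52 for melatonin, 0.62 for tanycytes, -0.60 for choroid plexus and 0.11 for growth factors, and no filter gave -0.03 for epithelial junctions, -0.06 for habenula and -0.04 for mural cells. Averaged probes gave -0.15 for dorsal midline factors, 0.01 for growth factors, 0.09 for immediate early genes, -0.02 for housekeeping and 0.07 for the gene Tef. With each array left out, medians ranged from -0.35 to 0.70 for choroid plexus, -0.03 to 0.46 for melatonin, -0.38 to 0.30 for growth factors, -0.32 to 0.41 for secretion, -0.08 to 1.47 for habenula, -0.59 to 0.12 for endothelium, -0.30 to 0.20 for immediate early genes, -1.33 to 0.08 for body fluid receptors, -1.25 to 0.29 for tanycytes, -0.08 to 0.12 for housekeeping, -0.36 to 0.01 for clock genes and -0.64 to 1.29 for mural cells. Medians of astrocytes (-3.35 to -2.40), microglia (-2.47 to -1.88), barrier genes (-1.92 to -1.03) and neuropeptides (-3.21 to -1.50) kept their sign when each array was left out. No paired analysis was possible because only the pineal gland has replicate numbers.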
